A study of Mus musculus with 75 samples.

Results

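Mouse embryonic fibroblasts that carried RelA without its transactivation domains (RelA-dTAD) were compared with fibroblasts that carried wild-type RelA (RelA-WT), by the change in their transcripts after 3 h of tumor necrosis factor (TNF). The comparison uses 8 of the 75 libraries of the study, chosen by construct and time: 2 of RelA-dTAD at 3 h, 2 of RelA-dTAD at 0 h, 2 of RelA-WT at 3 h and 2 of RelA-WT at 0 h. All 8 came from C57BL/6 fibroblasts without p53, c-Rel and RelA (p53-/- c-Rel-/- RelA-/-), to which a pBABE-puro retrovirus had returned the construct, and which were held in 0.5% serum overnight before TNF at 10 ng/ml. The cells therefore lacked p53 and c-Rel in both groups, and RelA came from a retroviral promoter. No cells kept for 3 h without TNF were used, so each 3 h response includes any change with time alone. The labels do not say whether the 2 libraries of a group came from separate cultures, so a p-value measures the spread between libraries, which may be technical. The edges of the deleted segment in RelA-dTAD are not given in the sources used here.

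RelA is a subunit of NF-kB, a family of dimeric transcription factors that IkB proteins hold in the cytoplasm of resting cells. TNF activates the IkB kinase, IkB proteins are degraded, and the freed dimers bind kB sites through the Rel homology region and recruit coactivators through transactivation domains at the C-terminal end of RelA, of which TA1 and TA2 are the best known. In fibroblasts the known targets include the genes of the IkB proteins themselves, chemokines, adhesion molecules and antigen presentation genes.

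Each deposited value was a count of reads per gene. The libraries of set 1 (replicate 1 of each group) held 5095855 to 6226356 counted reads and those of set 2 (replicate 2) 10801332 to 19248546. Levels are given as CPM, the reads of a gene per 1000000 reads after TMM scaling of the library sizes. A response is the log2 fold change of 3 h against 0 h, and the difference of the responses, RelA-dTAD minus RelA-WT, is on the log2 scale too. Adjusted p-values are from edgeR's quasi-likelihood test over 13665 genes, and a gene is called at an adjusted p under 0.05. Unless the set is named as a block, the fit did not include it, so differences between the sets add to the spread. Errors are SE. The fibroblast markers summed to 43820 and 47435 CPM in RelA-dTAD at 3 h and to 41996 and 46460 CPM in RelA-WT at 3 h. The 8 macrophage markers summed to 3.96 and 3.79 CPM in RelA-dTAD at 3 h and to 4.05 and 4.18 CPM in RelA-WT at 3 h. Of these markers 5 stayed under 1 CPM in all 8 libraries, and among them Adgre1 and Tyrobp had no read.

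The gene put back was checked first. Rela stood at 1382 and 2285 CPM in RelA-dTAD at 3 h and at 1124 and 1786 CPM in RelA-dTAD at 0 h. In RelA-WT it stood at 1180 and 1455 CPM at 3 h and at 1144 and 1468 CPM at 0 h. Set 2 was the higher one in each of these groups. At 3 h Rela was higher in RelA-dTAD than in RelA-WT within each set, and the constructs overlapped only across the sets. Cells with the empty vector (EV) had 24.2 and 20.1 CPM at 3 h. The level at 3 h differed by 0.48 ± 0.34 (adjusted p = 0.602) and that at 0 h by 0.16 ± 0.34 (adjusted p = 1). Reads of Rela do not separate the vector from the chromosome and do not check the deletion.

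Fewer genes passed the test for a TNF response in RelA-dTAD than in RelA-WT. At 3 h, 311 genes (2.28% of those tested) were higher and 86 (0.629%) lower than at 0 h in RelA-dTAD, against 1441 higher (10.5%) and 785 lower (5.74%) in RelA-WT. The test of the difference itself called 423 genes (3.10%): 341 responded less in RelA-dTAD (2.50%) and 82 responded more (0.600%), while the median difference over all genes tested was 0.01. With the deposited set as a block in the fit, 756 responded less and 384 more, and the counts for each construct were 1009 higher and 692 lower in RelA-dTAD and 2303 higher and 1924 lower in RelA-WT. Leaving out any 1 of the 8 libraries left 216 to 268 genes that responded less and 37 to 44 that responded more. The count of 216 came without RelA-WT 0 h replicate 2 and that of 37 without RelA-WT 3 h replicate 2.

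Of the 341 genes that responded less, 340 were called higher at 3 h in RelA-WT. In RelA-dTAD 47 of them were called higher, 293 were not called and 1 was called lower. These splits and those of the paragraphs that follow are from the fit without the block. With the block 1009 genes in all were called higher in RelA-dTAD, so a gene not called here can still respond. Their median response was 0.15 in RelA-dTAD and 1.48 in RelA-WT. The median of their 0 h difference was 0.03, and 1 of the 341 was called for it. At 3 h, 340 of the 341 were called lower in level, with a median of -1.28, where 763 genes (5.58%) were called lower and 274 (2.01%) higher in all. The difference was below 0 within each set for all 341 genes, with a median of -1.28 in set 1 and -1.29 in set 2. These medians describe genes chosen by the difference and are no test of it.

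The 82 genes that responded more had another make-up. In RelA-WT 56 of them were called lower at 3 h, of which 54 were not called in RelA-dTAD. Another 19 were called higher in RelA-dTAD and not called in RelA-WT. The remaining 7 were 6 called in neither construct and 1 called higher in both. The median response was 0.13 in RelA-dTAD and -0.60 in RelA-WT, again for genes chosen by the difference.

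A set of 1100 genes was called higher in RelA-WT and not called for the difference. Their median response was 0.27 in RelA-dTAD and 0.62 in RelA-WT, 177 were called higher in RelA-dTAD as well, and 1029 had a difference below 0. They were chosen by a high RelA-WT response, which is part of the difference, so these values are no test of it. Genes called higher in both constructs, with or without a call for the difference, numbered 225. That is 72.3% of the RelA-dTAD list and 15.6% of the RelA-WT list. Their median response was 0.59 in RelA-dTAD and 0.77 in RelA-WT.

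**Figure D1:**
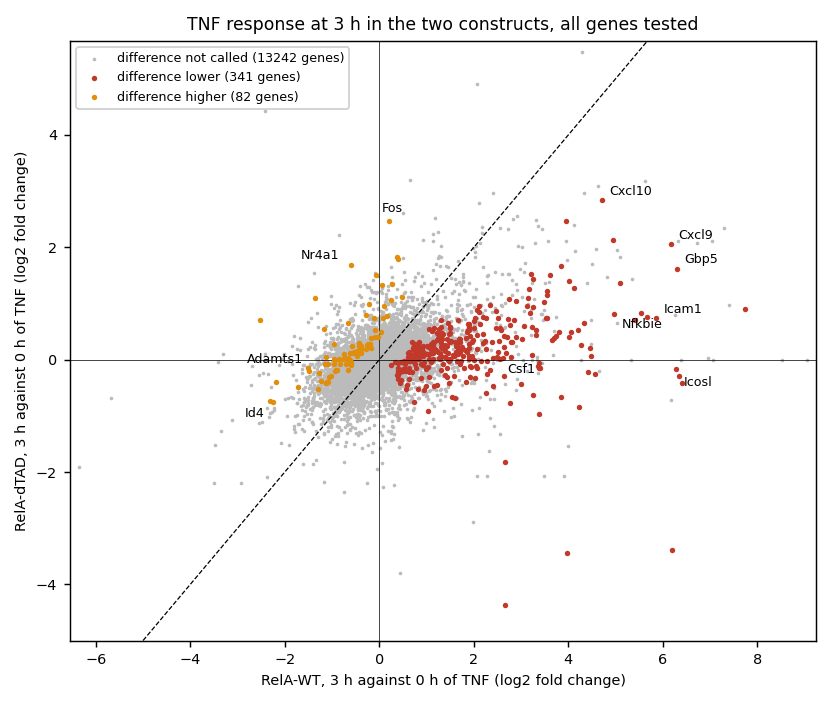
The response to 3 h of TNF (log2 fold change, 3 h against 0 h) in RelA-dTAD (y axis) is plotted against that in RelA-WT (x axis) for 13665 genes, with the 341 genes that responded less in RelA-dTAD in red, the 82 that responded more in orange and equal responses on the dashed line. The red genes have positive responses in RelA-WT, with a median of 1.48. In RelA-dTAD their median is 0.15, with values from -4.38 to 2.84. Fos and Nr4a1 lie above the dashed line.

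Promoter sequence is shown for the 4 genes with the largest differences, among 45 genes picked by role or by rank, whose RefSeq promoter window held a match to the kB consensus; the matches are in capitals. The windows run 250 bases before to 50 bases after the annotated start, in the RefSeq annotation of GRCm38.p6, and all 4 genes lie on the plus strand.
Icosl (chr10:78069118-78069417): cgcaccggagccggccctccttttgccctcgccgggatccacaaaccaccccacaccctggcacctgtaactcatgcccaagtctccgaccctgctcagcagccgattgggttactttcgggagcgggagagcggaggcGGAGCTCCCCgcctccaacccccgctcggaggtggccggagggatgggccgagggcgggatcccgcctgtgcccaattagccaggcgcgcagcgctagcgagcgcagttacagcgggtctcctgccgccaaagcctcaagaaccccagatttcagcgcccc
Gbp5 (chr3:142496684-142496983): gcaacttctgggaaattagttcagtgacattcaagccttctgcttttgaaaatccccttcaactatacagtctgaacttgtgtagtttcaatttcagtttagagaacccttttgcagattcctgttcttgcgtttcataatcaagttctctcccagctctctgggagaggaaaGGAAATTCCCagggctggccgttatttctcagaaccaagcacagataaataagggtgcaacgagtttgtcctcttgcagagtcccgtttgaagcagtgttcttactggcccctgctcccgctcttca
Steap4 (chr5:7960222-7960521): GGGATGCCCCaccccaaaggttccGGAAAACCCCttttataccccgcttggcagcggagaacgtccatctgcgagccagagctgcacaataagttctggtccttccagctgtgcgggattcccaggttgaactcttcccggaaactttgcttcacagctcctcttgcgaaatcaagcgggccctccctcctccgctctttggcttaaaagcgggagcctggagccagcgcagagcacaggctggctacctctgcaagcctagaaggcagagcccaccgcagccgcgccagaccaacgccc
Nfkbie (chr17:45555450-45555749): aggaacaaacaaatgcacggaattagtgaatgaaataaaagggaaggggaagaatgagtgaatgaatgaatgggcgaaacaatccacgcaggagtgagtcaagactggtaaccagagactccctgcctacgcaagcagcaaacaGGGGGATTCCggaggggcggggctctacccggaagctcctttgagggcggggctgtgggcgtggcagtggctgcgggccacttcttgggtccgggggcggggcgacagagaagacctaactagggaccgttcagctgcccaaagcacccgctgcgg
The match began 111 bases before the start in Icosl, 77 in Gbp5 and 106 in Nfkbie, and Steap4 held 2 matches, at 250 and 226 bases before the start.

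The kB consensus was searched on both strands as a pattern of 10 bases. It was found in 80 of the 341 windows that 256 of the genes that responded less have in the table (23.5%), in 13 of the 94 windows of 68 genes that responded more (13.8%), and in 1426 of the 13381 windows of the genes tested (10.7%). Over all 32851 promoter windows the share was 8.46%. Windows of genes called higher at 3 h held the kB consensus in 16.6% for RelA-WT and 16.1% for RelA-dTAD. Of the 341 genes that responded less, 340 are among those called higher in RelA-WT. The AP-1 pattern TGANTCA was held by 8.21% of the windows of genes that responded less, 4.26% of those of genes that responded more, 5.21% of those of the genes tested and 7.81% of all windows. The interferon response pattern GAAANNGAAA was held by 7.92%, 1.06%, 3.09% and 3.44% of the same windows. For genes called higher at 3 h in RelA-WT the AP-1 and interferon patterns stood at 6.58% and 5.77%. For those called higher in RelA-dTAD they stood at 7.46% and 5.37%. A match says only that these letters stand in the window.

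Nfkbie is described with the inhibitors, and the other 3 genes here. Icosl, the ligand of the T cell costimulator ICOS, had 0.720 and 0.718 CPM at 3 h and 1.23 and 0.621 CPM at 0 h in RelA-dTAD. In RelA-WT it had 57.9 and 74.1 CPM at 3 h and 0.795 and 0.861 CPM at 0 h. Only the RelA-WT libraries at 3 h stood apart, and the difference of the responses was -6.46 ± 0.95 (adjusted p = 0.000132). Gbp5, an interferon-inducible GTPase of the inflammasome pathway, had 10.8 and 19.3 CPM at 3 h and 3.86 and 5.85 CPM at 0 h in RelA-dTAD. In RelA-WT its levels were 253.9 and 285.7 CPM at 3 h and 3.66 and 3.29 CPM at 0 h. Gbp5 therefore rose in both constructs, by 1.62 ± 0.39 in RelA-dTAD (adjusted p = 0.0203) and by 6.29 ± 0.43 in RelA-WT (adjusted p = 1.45e-10), and the 3 h levels did not overlap. The RelA-dTAD call of Gbp5 was lost in 3 of the 4 fits that left out 1 RelA-dTAD library, at most at 0.416 (1.08, without RelA-dTAD 3 h replicate 2). Steap4, a metalloreductase, had 1.08 and 1.54 CPM at 3 h in RelA-dTAD and 46.1 and 56.1 CPM at 3 h in RelA-WT. Its difference of -4.42 ± 0.85 (adjusted p = 0.00247) moved to -2.92 (adjusted p = 0.736) without RelA-dTAD 0 h replicate 2.

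NF-kB is known to induce its own inhibitors. Nfkbia, which encodes IkB-alpha, had 59.8 and 60.2 CPM at 3 h and 32.3 and 30.2 CPM at 0 h in RelA-dTAD. In RelA-WT Nfkbia had 489.9 and 444.1 CPM at 3 h and 50.3 and 47.6 CPM at 0 h. It rose in both constructs, by 0.95 ± 0.15 in RelA-dTAD (adjusted p = 0.000381) and by 3.26 ± 0.15 in RelA-WT (adjusted p = 1.31e-13), and the difference was -2.31 ± 0.20 (adjusted p = 1.2e-07). Nfkbie, which encodes IkB-epsilon, had 7.92 and 7.95 CPM at 3 h and 6.02 and 3.67 CPM at 0 h in RelA-dTAD. The levels in RelA-WT were 283.3 and 277.7 CPM at 3 h and 8.91 and 8.93 CPM at 0 h. Every RelA-dTAD value of Nfkbie lay below every RelA-WT value, and the difference of the responses was -4.16 ± 0.40 (adjusted p = 4.12e-07). Tnfaip3, which encodes the ubiquitin-editing enzyme A20, had 28.1 and 20.6 CPM at 3 h in RelA-dTAD and 427.3 and 274.7 CPM at 3 h in RelA-WT, with a difference of -2.61 ± 0.47 (adjusted p = 0.00116). Tnip1, the partner of A20, did not pass the test in RelA-dTAD (-0.19 ± 0.13) and rose by 2.34 ± 0.13 in RelA-WT, a difference of -2.53 ± 0.18 (adjusted p = 5.27e-09). Of the 17 inhibitors and feedback genes tested, 4 responded less and none more, with a median difference of -0.88 against 0.01 over all genes. With the set as a block 10 responded less. For this list and those below, the shares over all genes tested were 2.50% less and 0.600% more. With the block they were 756 and 384 of the 13665 genes. In RelA-dTAD 5 were called higher at 3 h, against 13 in RelA-WT, and with the block 8 against 14.

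The NF-kB subunit genes are themselves TNF targets. Nfkb2, which encodes p100/p52, had 112.3 and 115.6 CPM at 3 h and 75.6 and 78.7 CPM at 0 h in RelA-dTAD. Its RelA-WT levels were 416.4 and 431.5 CPM at 3 h and 77.0 in both libraries at 0 h. The constructs overlapped at 0 h and stood apart at 3 h, with a difference of -1.90 ± 0.14 (adjusted p = 5.27e-09). Nfkb1, which encodes p105/p50, followed with -1.39 ± 0.16 (adjusted p = 4.88e-06), and rose by 0.52 ± 0.11 in RelA-dTAD (adjusted p = 0.00977), a call lost in 2 of the 4 fits that left out 1 RelA-dTAD library, at most at 0.14 (0.45, without RelA-dTAD 0 h replicate 2). Relb, the partner of p52, gave -1.997 ± 0.51 (adjusted p = 0.0277), a call lost in 5 of the 8 fits that left out 1 library, with the highest adjusted p, 0.318, at -1.49 without RelA-dTAD 0 h replicate 2. Of the 5 subunit genes tested these 3 responded less. Rela itself gave 0.32 ± 0.48 (adjusted p = 1).

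Among the adaptors and kinases of the TNF receptor, 7 of 24 responded less, with a median difference of -0.34. Ripk2, the kinase of the NOD receptors, had 29.7 and 35.9 CPM at 3 h in RelA-dTAD and 465.6 and 507.3 CPM at 3 h in RelA-WT, a difference of the responses of -3.57 ± 0.39 (adjusted p = 2.43e-06). Birc3, which encodes the ubiquitin ligase cIAP2, had 25.03 and 26.5 CPM at 3 h in RelA-dTAD and 93.1 and 103.2 CPM in RelA-WT, a difference of -1.99 ± 0.20 (adjusted p = 9.3e-07). Birc3 still rose in RelA-dTAD, by 0.56 ± 0.14 (adjusted p = 0.0303), a call lost in all 4 fits that left out 1 RelA-dTAD library, at most at 0.213 (0.52, without RelA-dTAD 3 h replicate 2). Its relative Birc2 (cIAP1) gave -1.41 ± 0.24 (adjusted p = 0.000797), and Ikbke, an IkB kinase relative, gave -1.63 ± 0.24 (adjusted p = 0.000167). The other 3, named after their values were seen, were the adaptors Traf2 and Traf3 and the kinase Tbk1, at -0.64, -1.196 and -0.59. Of these, Traf2 lost its call in 6 of the 8 fits that left out 1 library and Tbk1 in 3, at most at 0.248 (-0.54) and 0.08 (-0.56), both without RelA-dTAD 3 h replicate 2. Traf1, a receptor adaptor, had a difference of -2.47 ± 0.91 (adjusted p = 0.214) and did not pass.

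**Figure D2:**
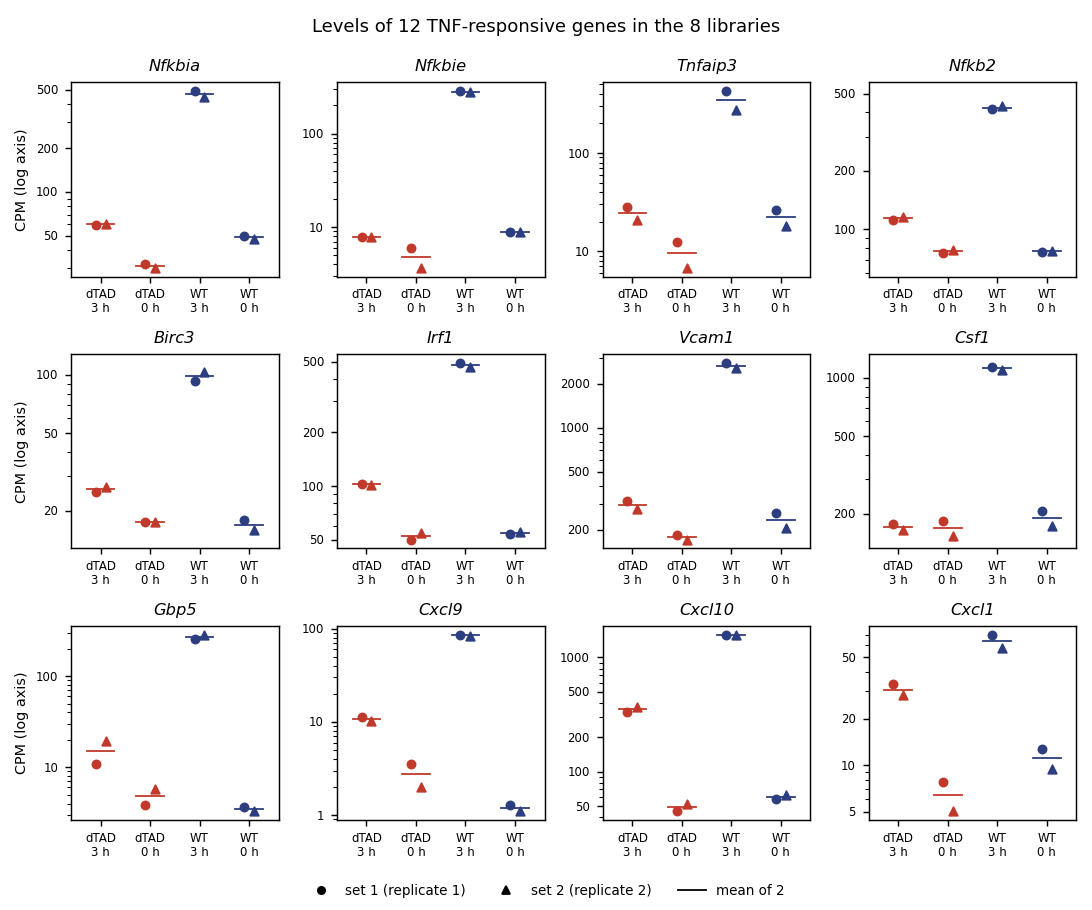
CPM (log axis) of 12 TNF-responsive genes in each of the 8 libraries, RelA-dTAD in red and RelA-WT in blue, with circles for set 1, triangles for set 2 and a line at the mean of 2. The RelA-WT libraries at 3 h stand above the other 6 in each panel, and the RelA-dTAD libraries at 3 h come closest to them for Cxcl1.

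Chemokines differed in how much response was left in RelA-dTAD. Cxcl9, a ligand of CXCR3, had 11.2 and 10.1 CPM at 3 h and 3.549 and 2.02 CPM at 0 h in RelA-dTAD. In RelA-WT it had 86.4 and 83.7 CPM at 3 h and 1.27 and 1.096 CPM at 0 h. The order of the constructs turned between the times: at 0 h both RelA-dTAD libraries were the higher ones (1.12 ± 0.35, adjusted p = 1), and at 3 h the lower ones (-3.01 ± 0.21, adjusted p = 3.73e-10). Cxcl10, another ligand of CXCR3, kept a strong response, with 335.9 and 365.8 CPM at 3 h and 45.1 and 52.6 CPM at 0 h in RelA-dTAD. RelA-WT had 1585 and 1572 CPM of Cxcl10 at 3 h and 57.6 and 62.6 CPM at 0 h. Its response was 2.84 ± 0.20 in RelA-dTAD (adjusted p = 4.81e-09) and 4.71 ± 0.21 in RelA-WT (adjusted p = 1.16e-13), with a difference of -1.87 ± 0.27 (adjusted p = 9.56e-05). Cx3cl1, the membrane-bound chemokine fractalkine, did not pass in RelA-dTAD (0.38 ± 0.20) and gave a difference of -3.32 ± 0.28 (adjusted p = 6.19e-08). Ccl5 (RANTES) gave -2.48 ± 0.28 (adjusted p = 4.88e-06) and Cxcl16 gave -2.21 ± 0.34 (adjusted p = 0.00026).

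Cxcl1, a neutrophil chemokine, had 33.3 and 28.3 CPM at 3 h and 7.71 and 5.02 CPM at 0 h in RelA-dTAD. Its RelA-WT levels were 70.0 and 57.1 CPM at 3 h and 12.7 and 9.39 CPM at 0 h. The response was 2.34 ± 0.48 in RelA-dTAD (adjusted p = 0.00593) and 2.55 ± 0.45 in RelA-WT (adjusted p = 0.000218), and the difference was -0.20 ± 0.66 (adjusted p = 1). Without RelA-dTAD 0 h replicate 2 the RelA-dTAD response did not pass (1.98, adjusted p = 0.149). Ccl2, a monocyte chemokine, had 151.8 and 94.4 CPM at 3 h in RelA-dTAD and 1369 and 962.7 CPM at 3 h in RelA-WT. Its difference of -1.73 ± 0.54 missed the threshold (adjusted p = 0.0967) and passed it with the set as a block (adjusted p = 0.00214). Ccl20, the ligand of CCR6, had 0.180 and 0.462 CPM at 3 h in RelA-dTAD and 40.1 and 40.8 CPM at 3 h in RelA-WT, and its difference of -3.77 ± 1.29 did not pass (adjusted p = 0.156). Of 19 chemokines tested, 5 responded less and none more. The median difference was -2.19, and 5 of the 19 had 3 or fewer reads in a group. In RelA-dTAD 5 chemokines were called higher at 3 h, against 16 in RelA-WT.

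Cytokine and growth factor genes gave 5 of 31 that responded less and 1 that responded more, with a median difference of -0.39. Csf1, the macrophage growth factor, had 177.5 and 163.9 CPM at 3 h and 184.1 and 154.0 CPM at 0 h in RelA-dTAD. In RelA-WT Csf1 stood at 1139 and 1093 CPM at 3 h and at 207.5 and 173.3 CPM at 0 h. The RelA-dTAD values of the times overlapped, with a response of 0.02 ± 0.18, and the difference was -2.54 ± 0.26 (adjusted p = 8.29e-07). Il15 gave -2.87 ± 0.60 (adjusted p = 0.00552), which was lost without RelA-WT 0 h replicate 2 (-2.51, adjusted p = 0.0701). Pdgfb, a platelet-derived growth factor, gave -2.16 ± 0.59 (adjusted p = 0.04), a call lost in 7 of the 8 fits that left out 1 library, at most at an adjusted p of 0.257 without RelA-dTAD 3 h replicate 2 (-1.69). Tnfsf8, which encodes CD30 ligand, had 7 reads at 3 h and 10 at 0 h in RelA-dTAD, and 229 at 3 h and 3 at 0 h in RelA-WT. The RelA-WT ratio of rates was 94.1 (95% counting interval 31.8 to 460), and the difference was called (adjusted p = 0.000468). The fifth was Pdgfa, another platelet-derived growth factor, at -1.0 ± 0.18 (adjusted p = 0.00156). Il6, a cytokine of the acute phase response, rose by 3.09 ± 0.55 in RelA-dTAD (adjusted p = 0.00147) and by 4.62 ± 0.59 in RelA-WT (adjusted p = 2.88e-06), with 0 h levels under 0.5 CPM, and the difference of -1.53 ± 0.94 did not pass (adjusted p = 0.722). Without RelA-dTAD 0 h replicate 2 the RelA-dTAD response of Il6 did not pass either (2.57, adjusted p = 0.115). The member that responded more was Hbegf, a ligand of the EGF receptor, named here after its value was seen, at 1.06 (adjusted p = 0.0338). That call was lost in 5 of the 8 fits that left out 1 library, at most at 0.287 (0.85, without RelA-WT 0 h replicate 2), and the count of those that responded less was then 3 to 5.

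Leukocyte adhesion genes gave 5 of 10 that responded less, with a median difference of -1.50. Vcam1, the ligand of the integrin VLA-4, had 313.3 and 278.3 CPM at 3 h and 183.8 and 170.6 CPM at 0 h in RelA-dTAD. RelA-WT had 2787 and 2556 CPM at 3 h and 259.5 and 204.3 CPM at 0 h. The constructs did not overlap at either time, and the difference of the responses was -2.79 ± 0.24 (adjusted p = 6.19e-08). Icam1, a ligand of the leukocyte integrin LFA-1, had 3.601 and 12.4 CPM at 3 h in RelA-dTAD and 605.2 and 778.3 CPM at 3 h in RelA-WT. Its difference of -5.12 ± 1.03 (adjusted p = 0.00376) was -4.37 (adjusted p = 0.327) without RelA-dTAD 0 h replicate 2. Selp (P-selectin) gave -4.81 ± 0.66 (adjusted p = 5.63e-05). Sele (E-selectin) rose by 2.13 ± 0.48 in RelA-dTAD (adjusted p = 0.0133) and by 4.94 ± 0.47 in RelA-WT (adjusted p = 2.75e-08). Its difference of -2.81 ± 0.70 (adjusted p = 0.0226) was lost in 5 of the 8 fits that left out 1 library, at most at an adjusted p of 0.589 without RelA-dTAD 0 h replicate 2 (-2.23), and its RelA-dTAD response in 3 of 4, at most at 0.292 (1.63, without RelA-dTAD 3 h replicate 2). The fifth was the hyaluronan receptor gene Cd44, at -1.17 (adjusted p = 0.000659). With a library left out, 3 to 5 adhesion genes responded less.

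Interferon and antigen presentation genes are known to be reached by NF-kB both directly and through Irf1. Irf1, a transcription factor of interferon responses, had 102.6 and 101.6 CPM at 3 h and 50.0 and 54.7 CPM at 0 h in RelA-dTAD. The RelA-WT levels were 492.3 and 466.5 CPM at 3 h and 53.6 and 55.5 CPM at 0 h. Irf1 rose by 0.96 ± 0.15 in RelA-dTAD (adjusted p = 0.000618) and by 3.13 ± 0.16 in RelA-WT (adjusted p = 1.17e-12), with a difference of -2.17 ± 0.22 (adjusted p = 8.29e-07). Stat5a, a cytokine signal transducer, and Irf2, an antagonist of IRF1, gave -1.49 ± 0.20 (adjusted p = 5.82e-05) and -1.19 ± 0.22 (adjusted p = 0.00176). These were the 3 of 13 interferon regulatory factor and STAT genes that responded less; with the set as a block 5 did. Of 17 interferon-inducible GTPases tested, 10 responded less and none more, with a median difference of -1.70 and 4 called higher in RelA-dTAD against 14 in RelA-WT. Leaving out a library gave 6 to 9 of the GTPases. Gbp2 had 189.8 and 155.0 CPM at 3 h in RelA-dTAD and 1169 and 992.3 CPM at 3 h in RelA-WT, a difference of the responses of -2.64 ± 0.37 (adjusted p = 9.01e-05). Gbp6 gave -2.44 ± 0.64 (adjusted p = 0.0318) and Tgtp1 gave -2.10 ± 0.53 (adjusted p = 0.0248), calls lost in 6 and 5 of the 8 fits that left out 1 library, with adjusted p-values up to 0.26 (-2.08, without RelA-dTAD 0 h replicate 2) and 0.308 (-1.52, without RelA-WT 0 h replicate 2). Reads of the Gbp genes, of Tgtp1 and of the Ifit genes can be shared with near-identical relatives, so single members are uncertain.

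The type I interferon response list gave 7 of 33 that responded less, with a median of -0.68, and all 33 differences were below 0, from -2.13 to -0.22. Parp14, an ADP-ribosyltransferase, and Dtx3l, a ubiquitin ligase that pairs with PARP9, gave -2.13 ± 0.32 (adjusted p = 0.000183) and -1.50 ± 0.27 (adjusted p = 0.00117). Ifit2, a translation inhibitor, kept a response of 0.75 ± 0.18 in RelA-dTAD (adjusted p = 0.0187; lost in all 4 fits that left out 1 RelA-dTAD library, at most at 0.188 with 0.63, without RelA-dTAD 0 h replicate 2), and its difference was -1.28 ± 0.25 (adjusted p = 0.00284). Cmpk2, a mitochondrial nucleotide kinase, gave -1.37 ± 0.30 (adjusted p = 0.00857), lost in 3 of the 8 fits that left out 1 library, at most at 0.0755 (-1.19, without RelA-WT 0 h replicate 1). For MHC class I presentation 5 of 21 responded less, with a median of -1.04; with the set as a block 14 did. In RelA-dTAD none of the 21 was called at 3 h, against 12 higher in RelA-WT. Tapbp, the peptide loading chaperone tapasin, had 419.8 and 436.2 CPM at 3 h and 436.8 and 412.8 CPM at 0 h in RelA-dTAD. RelA-WT had 915.0 and 812.2 CPM of Tapbp at 3 h and 461.9 and 374.1 CPM at 0 h, and the difference was -1.04 ± 0.17 (adjusted p = 0.000578). The RelA-dTAD values of Tapbp lay within the range of RelA-WT at 0 h. Its relative Tapbpl (TAPBPR) gave -1.66 ± 0.22 (adjusted p = 2.96e-05), the immunoproteasome subunit Psmb10 gave -1.41 ± 0.27 (adjusted p = 0.00265), and the proteasome activators Psme2 and Psme1 gave -0.72 and -0.65 (adjusted p = 0.000601 and 0.0263). Psme1 lost its call in 4 of the 8 fits that left out 1 library, at most at 0.191 (-0.51, without RelA-WT 3 h replicate 1).

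Costimulatory and innate receptors gave 10 of 19 that responded less and none more, with a median difference of -1.19. Tlr2, a receptor of bacterial lipoproteins, had 22.9 and 13.3 CPM at 3 h in RelA-dTAD and 348.8 and 275.3 CPM at 3 h in RelA-WT, a difference of -3.68 ± 0.51 (adjusted p = 7.48e-05). Fas, a death receptor, had 21.4 and 16.4 CPM at 3 h and 7.56 and 7.71 CPM at 0 h in RelA-dTAD. It rose in both constructs, by 1.28 ± 0.24 in RelA-dTAD (adjusted p = 0.00283) and by 4.12 ± 0.24 in RelA-WT (adjusted p = 1.02e-11). Its RelA-dTAD call was lost without RelA-dTAD 0 h replicate 2 (1.29, adjusted p = 0.0581). Cd83, a marker of activated antigen-presenting cells, had 13 reads at 3 h and 7 at 0 h in RelA-dTAD, and 562 at 3 h and 3 at 0 h in RelA-WT. The RelA-WT ratio of rates was 231.0 (95% counting interval 78.6 to 1120). Its call for the difference (adjusted p = 0.00952) was lost without RelA-dTAD 0 h replicate 2 (adjusted p = 0.656).

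In the survival and redox list 9 of 25 responded less, with a median of -0.08, and the apoptosis inhibitor gene Mcl1 responded more (0.48, adjusted p = 0.0248). Mcl1, named after its value was seen, lost its call in 6 of the 8 fits that left out 1 library, at most at 0.131 (0.43, without RelA-dTAD 3 h replicate 2), and with the set as a block 2 members responded more. In this list 5 to 8 genes responded less when a library was left out. Sod2, the mitochondrial superoxide dismutase, had 58.5 and 59.0 CPM at 3 h in RelA-dTAD and 192.6 and 186.7 CPM at 3 h in RelA-WT, a difference of -1.63 ± 0.24 (adjusted p = 0.000169). The cell death genes Casp4 and Bid gave -2.16 ± 0.32 and -1.64 ± 0.24 (adjusted p = 0.000128 and 0.000117). Of the matrix proteases and inhibitors 2 of 25 responded less and 1 more, and with the set as a block 5 less and 2 more. Those that responded less were the gelatinase Mmp9 at -1.87 ± 0.43 (adjusted p = 0.0132), lost in 3 of the 8 fits without a library with an adjusted p up to 0.153 (-1.76, without RelA-dTAD 0 h replicate 2), and Serpina3g, a protease inhibitor with close relatives, at -1.52 ± 0.20 (adjusted p = 2.86e-05). Of 16 complement and acute phase genes 2 responded less: Steap4, described above, and the zinc transporter Slc39a14, at -0.52 ± 0.12 (adjusted p = 0.0177), a call lost in 6 of the 8 fits without a library, at most at 0.101 (-0.48, without RelA-dTAD 0 h replicate 2).

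Further genes among those with the lowest differences fell in none of these lists. Ankrd33b, an ankyrin repeat gene, had 1.08 and 1.38 CPM at 3 h in RelA-dTAD and 38.2 and 26.9 CPM at 3 h in RelA-WT, a difference of -4.71 ± 0.74 (adjusted p = 0.000301). Tnfaip2, a TNF-induced gene, had 80.8 and 43.1 CPM at 3 h in RelA-dTAD and 1100 and 761.9 CPM at 3 h in RelA-WT, a difference of -3.68 ± 0.74 (adjusted p = 0.00374). Nr3c2, the mineralocorticoid receptor, had 2.16 and 1.95 CPM at 3 h and 3.09 and 3.31 CPM at 0 h in RelA-dTAD. Its RelA-WT levels were 53.2 and 56.9 CPM at 3 h and 3.82 and 3.84 CPM at 0 h, and the difference was -4.51 ± 0.49 (adjusted p = 2.39e-06). Cilp2, a cartilage matrix protein gene, gave -4.63 ± 0.95 (adjusted p = 0.00446) and lost its call without RelA-dTAD 0 h replicate 2 (-3.64, adjusted p = 0.344). Zbtb7c, a zinc finger gene, gave -4.24 ± 1.00 (adjusted p = 0.0155), a call lost in 4 of the 8 fits without a library, at most at 0.49 without RelA-dTAD 0 h replicate 2 (-3.33).

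**Figure D3:**
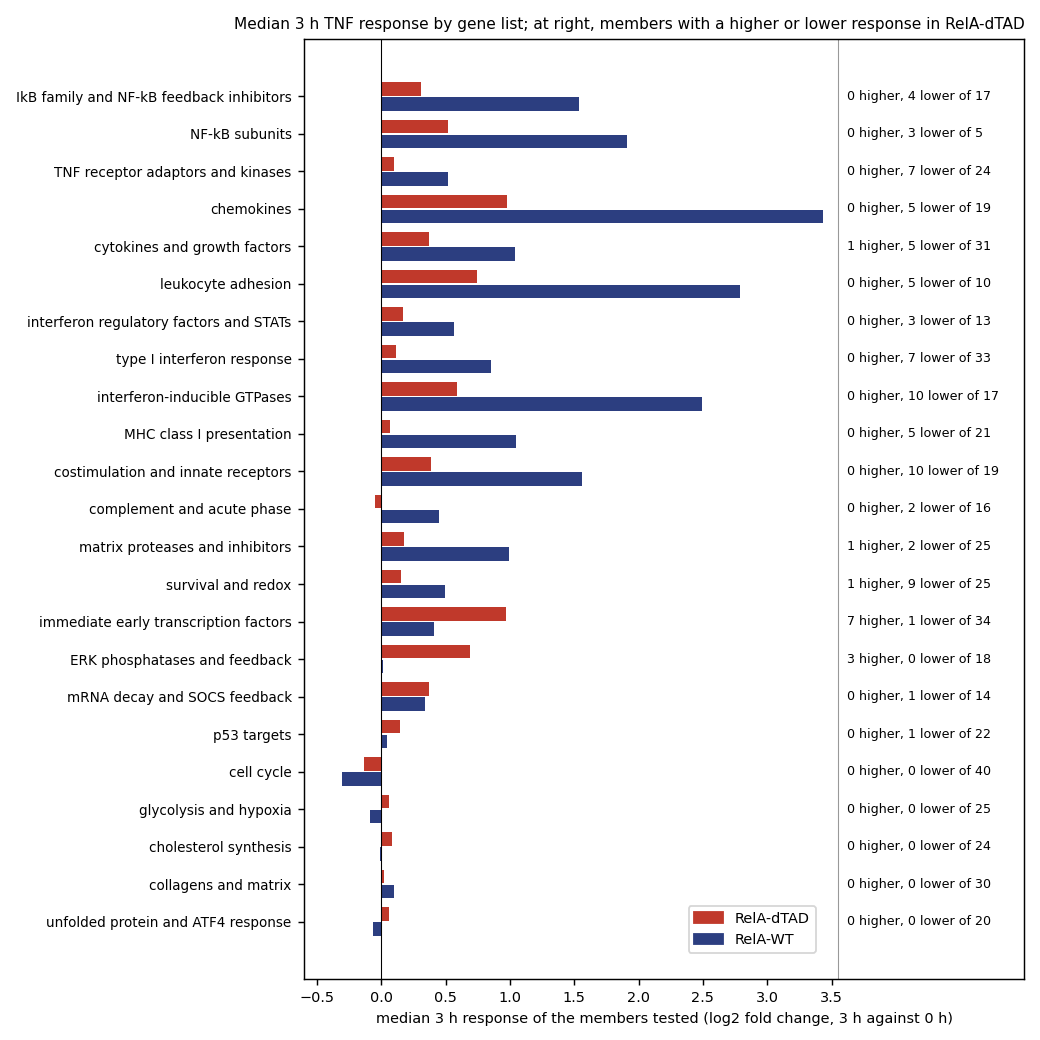
Median response to 3 h of TNF (log2 fold change, x axis) of the tested members of 23 gene lists, RelA-dTAD in red above RelA-WT in blue, with the members called for a higher or lower response in RelA-dTAD at the right. The blue bar is the longer one for the inflammatory and interferon lists, and the red bar for immediate early genes (0.97 in RelA-dTAD against 0.41 in RelA-WT) and ERK feedback genes (0.69 against 0.01). By less, the red bar is also longer for mRNA decay and SOCS genes (0.37 against 0.34). So it is for p53 targets (0.14 against 0.04) and cholesterol synthesis (0.09 against -0.01).

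Among immediate early genes more members responded more than less. Of 34 such transcription factor genes, 7 responded more in RelA-dTAD and 1 less, against 0.600% and 2.50% of all genes tested. These genes are known to follow growth factor and stress kinases within minutes. Their median difference was 0.39 against 0.01 over all genes. In RelA-dTAD 19 were called higher and 1 lower at 3 h, against 13 higher and 4 lower in RelA-WT. With the block 23 were higher and 3 lower in RelA-dTAD, against 16 higher and 5 lower in RelA-WT. The member that responded less was Cebpd, a C/EBP factor of the acute phase (-1.25, adjusted p = 0.0219), named after its value was seen. Its call was lost in 6 of the 8 fits that left out 1 library, at most at 0.181 (-1.03, without RelA-WT 0 h replicate 2), and with the set as a block 3 members responded less and 9 more. The 7 that responded more were Fos, Fosb, Fosl2, Egr2, Egr3, Nr4a1 and Ier2. With a library left out, 4 or 5 responded more, and Fosl2 (0.81, adjusted p = 0.0284) was lost in all 8 of these fits, at most at 0.131 (0.74, without RelA-WT 0 h replicate 2). Fos, a subunit of AP-1, had 32.8 and 40.8 CPM at 3 h and 7.87 and 6.00 CPM at 0 h in RelA-dTAD. In RelA-WT it had 7.49 and 8.45 CPM at 3 h and 8.27 and 6.03 CPM at 0 h. Only the RelA-dTAD libraries at 3 h stood apart. The response was 2.46 ± 0.29 in RelA-dTAD (adjusted p = 1.3e-05) and 0.21 ± 0.33 in RelA-WT (adjusted p = 0.767), with a difference of 2.25 ± 0.44 (adjusted p = 0.00273).

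Nr4a1, an orphan nuclear receptor, had 51.3 and 67.3 CPM at 3 h and 16.0 and 20.3 CPM at 0 h in RelA-dTAD. Its RelA-WT levels were 12.9 and 13.1 CPM at 3 h and 21.8 and 17.8 CPM at 0 h. The constructs overlapped at 0 h, and the difference of the responses was 2.28 ± 0.49 (adjusted p = 0.0073). Egr3, a zinc finger factor, had 25.4 and 25.8 CPM at 3 h in RelA-dTAD and 5.87 and 10.5 CPM at 3 h in RelA-WT, a difference of 1.58 ± 0.31 (adjusted p = 0.00323). Ier2, another early response gene, gave 1.44 ± 0.26 (adjusted p = 0.00144). Fosb gave 2.46 ± 0.51 (adjusted p = 0.00497), with a response of 1.098 ± 0.32 in RelA-dTAD (adjusted p = 0.0682, or 0.0148 with the set as a block) and of -1.36 ± 0.40 in RelA-WT (adjusted p = 0.0184; 0.146 without RelA-WT 0 h replicate 2). Fosb lost its call in 3 of the 8 fits that left out 1 library, at most at an adjusted p of 0.0773 (2.02, without RelA-dTAD 3 h replicate 2). Egr2, at 1.39 ± 0.38 (adjusted p = 0.0437), lost it in all 8, at most at 0.24 (1.17, without RelA-WT 0 h replicate 1), and with the set as a block (adjusted p = 0.0569). Egr1, the founding member of that family, had 365.3 and 421.8 CPM at 3 h in RelA-dTAD and 119.6 and 137.8 CPM at 3 h in RelA-WT. Its difference of 1.52 ± 0.48 missed the threshold (adjusted p = 0.0977) and passed with the set as a block (adjusted p = 0.0358). Atf3, a stress factor, rose in both constructs, by 2.37 ± 0.36 in RelA-dTAD (adjusted p = 0.000312) and by 2.17 ± 0.36 in RelA-WT (adjusted p = 0.000104), with a difference of 0.19 ± 0.50 (adjusted p = 1).

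Of 18 feedback genes of the ERK pathway, 3 responded more and none less, with a median difference of 0.79. With the set as a block 10 responded more, and with a library left out 1 to 4. In RelA-dTAD 9 were called higher at 3 h, against 3 higher and 2 lower in RelA-WT, or 4 lower in RelA-WT with the block. Dusp6, an ERK phosphatase, had 34.2 and 34.6 CPM at 3 h and 17.6 and 17.1 CPM at 0 h in RelA-dTAD. RelA-WT had 14.8 and 17.0 CPM at 3 h and 22.4 and 15.4 CPM at 0 h, and the difference was 1.21 ± 0.23 (adjusted p = 0.00209). Both RelA-dTAD libraries at 3 h lay above the other 6. Errfi1, an inhibitor of the EGF receptor, gave 1.07 ± 0.23 (adjusted p = 0.0073), lost without RelA-WT 3 h replicate 1 (0.86, adjusted p = 0.085). Dusp14, another phosphatase, gave 1.24 ± 0.32 (adjusted p = 0.0266), lost in 7 of the 8 fits without a library, at most at 0.309 (0.88, without RelA-WT 0 h replicate 2).

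Adamts1, Rarb, Fgf18 and Id4 fell in RelA-WT and did not pass the test in RelA-dTAD, where Id4 did pass with the set as a block (adjusted p = 0.0125). Adamts1, a metalloprotease of the ADAMTS family, had 350.9 and 424.0 CPM at 3 h and 474.2 and 390.2 CPM at 0 h in RelA-dTAD. In RelA-WT it had 155.4 and 140.1 CPM at 3 h and 486.5 and 349.3 CPM at 0 h. The response was -0.16 ± 0.17 in RelA-dTAD (adjusted p = 0.81) and -1.50 ± 0.17 in RelA-WT (adjusted p = 6.11e-07), with a difference of 1.34 ± 0.24 (adjusted p = 0.00116). Rarb, a retinoic acid receptor, had 17.5 and 16.2 CPM at 3 h in RelA-dTAD and 7.08 and 7.60 CPM at 3 h in RelA-WT, a difference of 1.304 ± 0.27 (adjusted p = 0.00438). In Adamts1 and Rarb the RelA-WT libraries at 3 h stood below the other 6. Tnfrsf12a, the receptor of the cytokine TWEAK, rose by 1.33 ± 0.18 in RelA-dTAD (adjusted p = 8.23e-05) and gave 0.06 ± 0.18 in RelA-WT, with a difference of 1.27 ± 0.26 (adjusted p = 0.00387). Fgf18, a fibroblast growth factor, gave a response of -0.41 ± 0.27 in RelA-dTAD and of -2.18 ± 0.32 in RelA-WT (adjusted p = 1.71e-05), and Id4, an inhibitor of helix-loop-helix factors, one of -0.73 ± 0.24 in RelA-dTAD and of -2.32 ± 0.29 in RelA-WT (adjusted p = 1.9e-06). Fam131b did not pass in either construct (0.66 ± 0.25 in RelA-dTAD and -0.65 ± 0.27 in RelA-WT), and passed in both with the block (adjusted p = 0.00401 in RelA-dTAD and 0.0145 in RelA-WT). The differences of Fgf18, Id4 and Fam131b were 1.77 ± 0.42, 1.58 ± 0.38 and 1.31 ± 0.36 (adjusted p = 0.0149, 0.0175 and 0.0471). Their calls were lost in 5, 5 and 7 of the 8 fits that left out 1 library, at most at adjusted p-values of 0.102 (without RelA-WT 0 h replicate 1), 0.239 (without RelA-WT 3 h replicate 2) and 0.292 (without RelA-dTAD 0 h replicate 2).

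**Figure D4:**
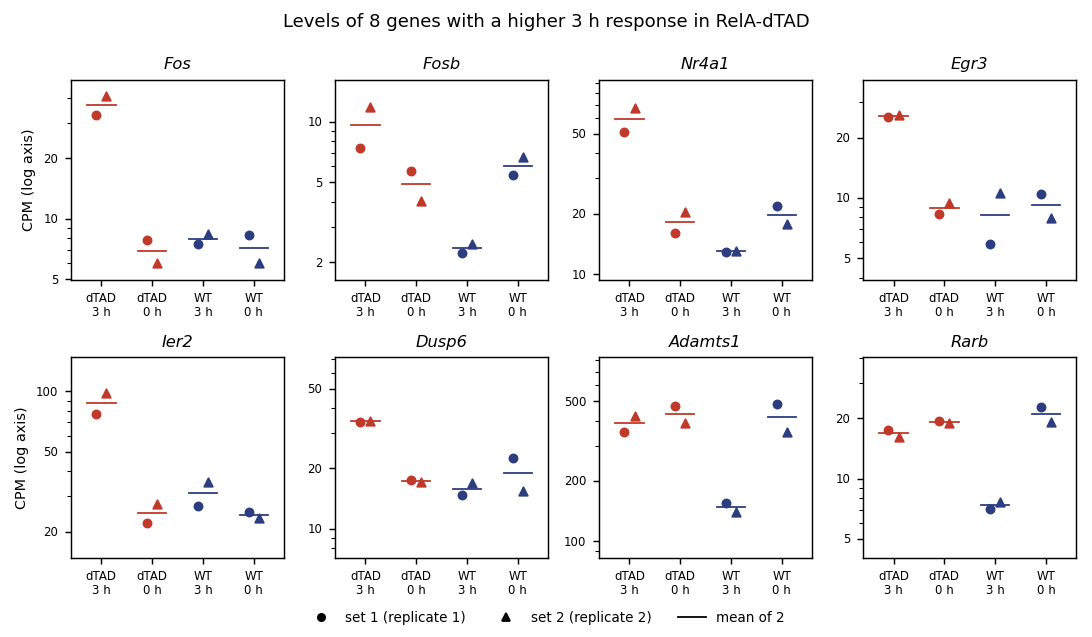
CPM (log axis) of 8 genes that responded more in RelA-dTAD, in each of the 8 libraries, RelA-dTAD in red and RelA-WT in blue, with circles for set 1, triangles for set 2 and a line at the mean of 2. Fos, Nr4a1, Ier2 and Dusp6 are highest in RelA-dTAD at 3 h, while Adamts1 and Rarb are lowest in RelA-WT at 3 h.

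Lists outside the inflammatory and growth factor programs gave few calls. None of 40 cell cycle genes, 25 glycolysis and hypoxia genes, 24 cholesterol synthesis genes, 30 collagen and matrix genes and 20 genes of the unfolded protein response was called for the difference by edgeR, with medians of 0.19, 0.13, 0.15, -0.11 and 0.15. With the set as a block 0, 3, 0, 2 and 1 of them were called. Of 14 mRNA decay and SOCS genes none responded more, though 3 did with the set as a block, and 1 responded less, the cytokine signalling inhibitor Socs2, at -1.68 ± 0.44 (adjusted p = 0.0313). It was lost in 6 of the 8 fits without a library, at most at 0.213 (-1.42, without RelA-WT 0 h replicate 2). Of 22 p53 targets 1 responded less, the TRAIL receptor Tnfrsf10b, at -1.01 ± 0.19 (adjusted p = 0.00159), and with the block 2. Over all genes tested 2.50% responded less, so single calls among 14 or 22 genes are no result about those lists. Among markers of other cell types, the endothelial receptor gene Flt1 responded less (-2.46 ± 0.40, adjusted p = 0.000447). It was the only called one of the 3 endothelial markers tested, whose differences ran from -2.46 to 0.74. The 7 endothelial markers summed to 57.4 and 57.9 CPM in RelA-dTAD at 3 h and to 165.3 and 136.5 CPM in RelA-WT at 3 h. At 0 h the sums were 41.5 and 52.9 CPM in RelA-dTAD and 49.0 and 56.3 CPM in RelA-WT. Of these markers Tie1 had no read, and Pecam1 and Cdh5 stayed under 1 CPM in all 8 libraries. Whether other cells bear on these differences was not tested.

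Few genes were called before TNF. The test of the 0 h levels called 4 genes, all lower in RelA-dTAD (0.0293%), named here after their values were seen. C3, the central complement component, had 0.540 and 0.769 CPM at 3 h and 0.926 and 0.362 CPM at 0 h in RelA-dTAD. In RelA-WT it had 99.96 and 92.3 CPM at 3 h and 35.3 and 23.02 CPM at 0 h, so the 0 h level differed by -5.77 ± 0.40 (adjusted p = 4.3e-09). Saa3, an acute phase protein gene, had no read at 3 h in RelA-dTAD and 1025 reads at 3 h in RelA-WT. Taking 3 reads for the whole group as the floor, which covers counting error only, the level is at least 551-fold lower in RelA-dTAD. At 0 h it had 4 reads in RelA-dTAD and 891 in RelA-WT. Ntn1 (netrin 1) was lower by a log2 difference of -1.38 ± 0.16 at 0 h (adjusted p = 5.15e-05), and Spint2, a protease inhibitor, by -2.36 ± 0.41 (adjusted p = 0.0198), a call lost in all 4 fits that left out 1 of the 0 h libraries, at most at 0.673 (-2.04, without RelA-dTAD 0 h replicate 1). Of these 4, Ntn1 was also called for the difference of the responses (-0.87 ± 0.23, adjusted p = 0.0308), which was lost in all 8 fits that left out 1 library, at most at 0.123 (-0.81, without RelA-dTAD 3 h replicate 1). With the set as a block 7 genes were lower and 2 higher at 0 h.

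Cells with the empty vector and cells with RelA without TA1 alone (RelA-dTA1), each with 2 libraries at 0 h and 2 at 3 h, give the scale of the RelA-dTAD differences. They were set against the same RelA-WT libraries, so the comparisons are not independent. For RelA-dTAD minus EV, edgeR called no gene at 3 h, DESeq2 called none and the block called none. Of the 13665 genes, 113 had an unadjusted p under 0.05. That is a smaller share than the 0.05 that would arise without any difference, so the count is no sign of differences. The lowest adjusted p was 1, which does not show that the responses were equal. Nfkbia had 59.8 and 60.2 CPM at 3 h in RelA-dTAD and 41.9 and 36.9 CPM at 3 h in EV. Its response in RelA-dTAD differed from that in EV by 0.44 ± 0.21 (adjusted p = 1), and from that in RelA-WT by -2.31 ± 0.20. Birc3 had 25.03 and 26.5 CPM at 3 h in RelA-dTAD and 13.4 and 12.3 CPM at 3 h in EV, a difference of the responses of 0.72 ± 0.21 (adjusted p = 1). Fos had 32.8 and 40.8 CPM at 3 h in RelA-dTAD and 40.8 and 50.3 CPM at 3 h in EV, a difference of -0.21 ± 0.41 (adjusted p = 1).

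For RelA-dTA1 minus RelA-WT no gene was called by edgeR, and the block called 3 higher and 3 lower. Of the 13665 genes, 182 had an unadjusted p under 0.05, again a smaller share than 0.05. Nfkbia gave -2.31 ± 0.20 for RelA-dTAD and -0.19 ± 0.20 for RelA-dTA1, each minus RelA-WT. Vcam1 gave -2.79 ± 0.24 for RelA-dTAD and -0.62 ± 0.23 for RelA-dTA1, and Fos gave 2.25 ± 0.44 for RelA-dTAD and 0.70 ± 0.44 for RelA-dTA1. Nr3c2 had the lowest adjusted p for RelA-dTA1. It had 2.16 and 1.95 CPM at 3 h in RelA-dTAD, 4.63 and 12.3 CPM in RelA-dTA1 and 53.2 and 56.9 CPM in RelA-WT. Its difference from RelA-WT was -4.51 ± 0.49 for RelA-dTAD and -2.66 ± 0.45 for RelA-dTA1 (adjusted p = 0.0577, or 0.000109 with the set as a block).

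**Figure D5:**
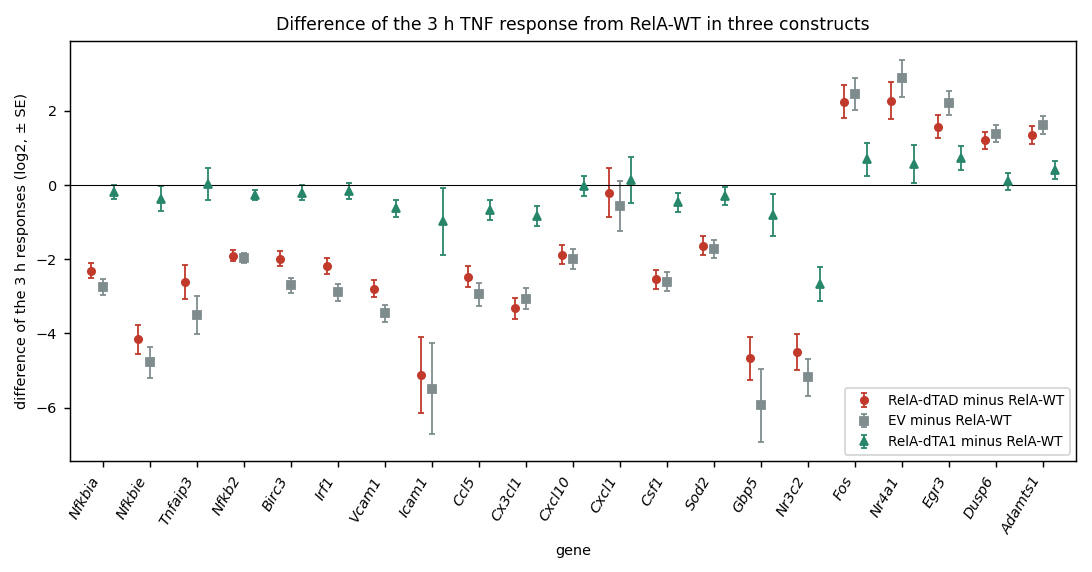
Difference of the 3 h TNF response from RelA-WT (log2, y axis, bars are SE) for 21 genes in RelA-dTAD (red circles), EV (grey squares) and RelA-dTA1 (green triangles), all against the same RelA-WT libraries. For Nfkbia the values are -2.31 in RelA-dTAD, -2.75 in EV and -0.19 in RelA-dTA1, and for Nr3c2 they are -4.51, -5.18 and -2.66.

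The same difference was read at 1 h and 8 h from fits that share the 0 h libraries. At 1 h, 82 genes responded less in RelA-dTAD (0.600%) and none more, and at 8 h 792 responded less (5.80%) and 881 more (6.45%). With the set as a block these counts were 195 less and 30 more at 1 h, and 1768 less and 2030 more at 8 h. Nfkbia gave -3.75 ± 0.21 at 1 h, -2.31 ± 0.20 at 3 h and -1.23 ± 0.20 at 8 h. Csf1 gave -2.57 ± 0.26, -2.54 ± 0.26 and -0.32 ± 0.25 at these times, the last with an adjusted p of 0.498. Ccl5 gave -0.31 ± 0.29, -2.48 ± 0.28 and -4.38 ± 0.29. Cxcl1, which did not pass at 3 h, gave -3.22 ± 0.67 at 1 h (adjusted p = 0.0172). Fos gave 0.56 ± 0.45 at 1 h, 2.25 ± 0.44 at 3 h and 1.75 ± 0.44 at 8 h (adjusted p = 0.00854), and Dusp6 0.27 ± 0.23, 1.21 ± 0.23 and 2.37 ± 0.22. Changes across these times were not tested against each other. Rela itself gave 1.56 ± 0.48 at 8 h (adjusted p = 0.0345).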

How the data were processed

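Polyadenylated RNA of the 4 replicated constructs (EV, RelA-WT, RelA-dTAD and RelA-dTA1) was analysed from the read counts per gene that the authors deposited. Per the submitters' processing notes, reads were trimmed with cutadapt 1.9.1, and STAR, mm10, featureCounts 1.5.0 and DESeq2 are named there; the strand setting is not given in the sources used here, so overlapping and antisense genes are uncertain. All 75 sample columns were mapped by title, and 45143 of 45706 gene entries (98.77%) had a symbol. Among the 8 libraries the entry Gm42418 took 0.00498% to 0.00702% of the reads of set 1 and 0.815% to 1.53% in set 2.

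edgeR 4.0.16 (R 4.3.3) was run on the counts as deposited: filterByExpr left 13665 genes, library sizes were scaled by TMM, and 40 libraries (20 groups of 2, at 5 times) were fitted with a mean for every construct at each time and the robust quasi-likelihood test. P-values were adjusted over all genes by Benjamini and Hochberg's method, with a threshold of 0.05. The common dispersion was 0.0224, with 20 residual degrees of freedom, so the spread is borrowed from constructs and times beyond the 8 libraries. CPM values are from the cpm function. The scripts were tested on simulated data. The replicate number equals the deposited set, per the labels. Deviations of same-numbered libraries correlated at 0.525 to 0.643 in the 6 pairs among the 4 groups compared, so the numbers pair the samples. Counts over all genes tested are also given with the set as a block. SE and adjusted p-values of single genes are from the fit without the block, unless it is named. So are splits of called genes by construct, and list counts printed without a block count. The block count was larger in several of these lists. With the block 10 TNF receptor adaptors and kinases, 7 chemokines and 6 cytokine and growth factor genes responded less. So did 12 interferon-inducible GTPases, 10 type I interferon response genes and 12 costimulatory and innate receptors. A ratio with 3 or fewer reads in a group has a 95% exact interval or a floor of 3 reads, for counting error only.

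The members and lists were chosen with earlier results of these data known. Named genes were 25 chosen for their known roles, the 12 lowest and 12 highest called differences (same sign in both sets, over 10 reads in each group, mean of at least 5 CPM over the 8 libraries, no model names) and up to 4 called members of each list. Promoter windows are from RefSeq. Alternatives were size factors by the DESeq2 method, DESeq2 1.42.0, no filter on low counts, at least 1 CPM in 20 libraries, fewer libraries in the fit, the block, each set alone and each library left out. Fits with a library left out held no block, so a lost call can also reflect the difference between the sets.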

Additional observations from a re-analysis of the deposited data

Results flagged for a closer look

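The 3 h responses of RelA-dTAD and RelA-WT differed, by the test of the difference itself, for 341 genes that responded less in RelA-dTAD and 82 that responded more.

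St3gal3, a sialyltransferase gene on chromosome 4, was singled out because its called changes ran in opposite directions. It had 15.3 and 21.8 CPM at 3 h and 27.5 and 25.5 CPM at 0 h in RelA-dTAD, and 47.4 and 44.7 CPM at 3 h and 23.9 and 22.8 CPM at 0 h in RelA-WT. The response was -0.48 ± 0.13 in RelA-dTAD (adjusted p = 0.0471) and 0.98 ± 0.13 in RelA-WT (adjusted p = 4.97e-06). The RelA-dTAD call was lost in 3 of the 4 fits that left out 1 RelA-dTAD library, at most at an adjusted p of 0.503 (-0.27, without RelA-dTAD 3 h replicate 1). The difference was -1.46 ± 0.19 (edgeR, adjusted p = 2.05e-05). How the counting treated strand is not given, so reads of overlapping transcripts could be included.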

How the results depend on the processing

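The number of calls depended on how the spread was estimated. For the difference of the 3 h responses (341 lower, 82 higher) the replicate block gave 756 lower and 384 higher, a fit of the RelA-dTAD and RelA-WT libraries alone gave 37 higher, and a fit of the compared groups alone gave 196 lower and 9 higher; with a library left out the counts were 216 to 268 lower and 37 to 44 higher. For RelA-dTAD at 3 h (311 higher, 86 lower) the same settings gave 1009 and 692, 182 and 27, 4 and 0, and 111 to 166 and 8 to 29. For RelA-WT at 3 h (1441 higher, 785 lower) the block gave 2303 and 1924, the compared groups alone 821 and 189, and a left-out library 950 to 1064 and 356 to 517. For the level at 3 h (274 higher, 763 lower) the block gave 871 and 1357, the compared groups alone 55 and 431, and a left-out library 127 to 172 and 499 to 611. For the level at 0 h (0 higher, 4 lower) no filter on low counts gave 3 and 21, the block 2 and 7, the compared groups alone 0 lower and a left-out library 3 lower. For RelA-dTAD minus EV no filter gave 1 lower. Without the filter 27388 genes were tested, the block left 19 residual degrees of freedom, and the other fits had fewer libraries.

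Of 74 named genes called for the difference, 52 kept the call whichever of the 8 libraries was left out. The sign turned only for uncalled values: with a library left out, Rela ran between -0.086 (without RelA-dTAD 3 h replicate 2) and 0.696, Cxcl1 between -0.563 and 0.0473 (without RelA-dTAD 0 h replicate 1; 0.0316 without RelA-WT 0 h replicate 2), and Atf3 between -0.082 (without RelA-dTAD 0 h replicate 2) and 0.407. Beyond the calls given in the report, the replicate block changed no call for the difference among the 82 named genes.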
